A study of Mus musculus with 6 samples.

Results

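Rbm47 and 8 further regulators of alternative splicing were followed across mouse mammary tumours of 2 crosses. The group comprises Rbm47, the epithelial splicing regulators Esrp1 and Esrp2, the muscleblind genes Mbnl1 and Mbnl2, and Ptbp1, Srsf1, Hnrnpm and Celf1. Rbm47 was chosen on its higher value in AKR F1 than in DBA F1 tumours, and the others were named with it as splicing regulators, so the AKR against DBA differences of the group are given as a description. Membership required a probe set annotated to exactly 1 gene symbol. This gave 20 probe sets of 8 genes, of 22626 probe sets and 12393 genes in all. Mbnl2 had no such probe set and has no value here.

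RNA-binding proteins of this group decide which exons of a transcript are kept. ESRP1 and ESRP2 are epithelial factors that favour the epithelial exons of Fgfr2, Cd44, Ctnnd1 and Enah, and their loss accompanies the transition of epithelial to mesenchymal cells. RBM47 binds pre-mRNA and mRNA, is known as a suppressor of breast cancer progression, and is a cofactor of APOBEC1, the enzyme that edits C to U in RNA. HNRNPM opposes ESRP1 at Cd44 exons, MBNL and CELF proteins act against each other in muscle development, PTBP1 represses exons through pyrimidine tracts, and SRSF1 is an SR protein that promotes exon inclusion.

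The tumours came from adult female F1 mice. All carried PyMT, the polyomavirus middle T antigen transgene that causes mammary tumours, from 1 parent; the other parent was AKR/J (AKR F1, 3 samples) or DBA/2J (DBA F1, 3 samples). The promoter driving the transgene and the exact age are not given in the sources used here, and the sample titles each carry a different number without saying whether it marks an animal, so the p-values reflect only how these samples varied, which may be technical. Each sample was measured on a single Affymetrix array, with values on the log2 scale from 3.65 to 14.73. Such an array reads mainly the 3′ end of transcripts. A value is thus the level of the transcripts its probe set reads, and exon use was not measured.

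The arrays carried strong epithelial signal: Epcam lay at 12.78 to 13.17 and the luminal keratin gene Krt8 at 12.13 to 12.75 on all 6. AKR replicate 2 stood apart, with correlations of 0.955 to 0.965 with its own cross against 0.991 between the other AKR arrays. Its mean over salivary gland genes was 11.09, against 7.31 to 8.36 on the other arrays. DBA replicate 1 had a mean over skeletal muscle genes of 11.39, against 6.28 and 6.34 on the other DBA arrays, and a mean over adipocyte genes of 9.09, against 6.48 to 7.41 elsewhere. In such bulk tissue, fewer cells of a type and less RNA per cell cannot be told apart. Differences also followed brightness: the median AKR minus DBA difference was 0.23 among probe sets of the third decile of mean level and -0.21 in the brightest decile. Quantile normalization reduced these medians to 0.07 and 0.02, and each member's difference is therefore set beside the median of its own decile.

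Rbm47 was the member that separated the crosses by far the most. Its brighter probe set read 8.55, 8.89 and 8.86 in AKR F1 against 6.96, 6.54 and 6.58 in DBA F1 tumours. The lowest AKR value lay well above the highest DBA value. The means were 8.77 ± 0.19 and 6.69 ± 0.23 (SD, n = 3 each), a difference of 2.08 with a 95% interval of 1.68 to 2.47, or 4.21-fold. Only 7 of the 12393 genes had a larger difference in favour of AKR at their brightest probe set. The median of its brightness decile was 0.02. This value chose the gene and supports nothing further.

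The size of the Rbm47 difference did not rest on a single array: it was 2.00 to 2.21 when each array was left out in turn, and 2.15 when AKR replicate 2 and DBA replicate 1 were both dropped. The other Rbm47 probe set read 5.20, 5.16 and 5.17 in AKR F1 against 5.19, 5.13 and 4.98 in DBA F1 tumours. It was dim, with 9.68% of probe sets lower in AKR and 10.4% lower in DBA F1 tumours, and its crosses overlapped. Its difference was 0.08 as deposited and -0.06 after quantile normalization. The Rbm47 separation was thus seen at 1 of its probe sets.

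**Figure D1:**
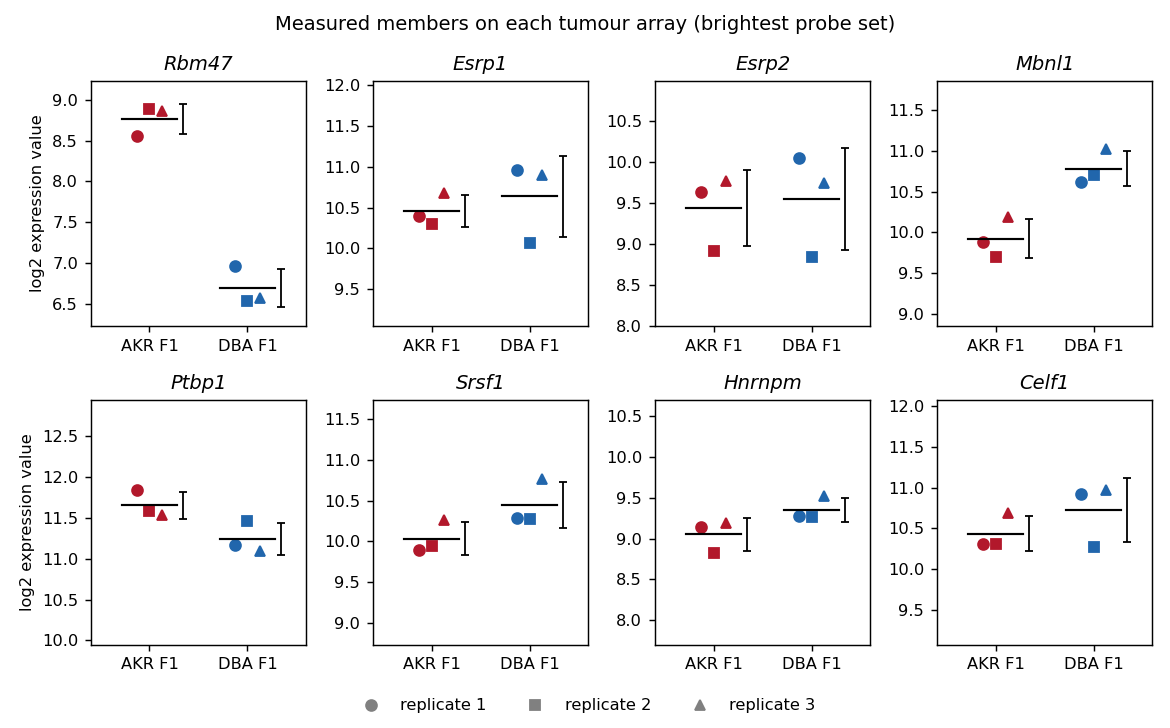
Values of the 8 measured members at their brightest probe set (log2 expression, y axis) in AKR F1 (red) and DBA F1 (blue) tumours; each symbol is an array, the line is the mean and the bar the SD (n = 3). Every panel spans 3 log2 units on its own scale, so panels can be compared in spread but not in level. Rbm47 is separated by 2.08, Mbnl1 lies higher in every DBA array, and Esrp1, Esrp2 and Celf1 overlap between crosses.

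By limma across all probe sets, Rbm47 at its brighter probe set was the 1 of 20 member probe sets that passed an adjusted p of 0.05, where 0.0972% of all probe sets passed (0.0354% higher in AKR F1 and 0.0619% higher in DBA F1). Because the comparison chose the gene, nothing is read from that count. No member probe set passed without AKR replicate 1, AKR replicate 2, AKR replicate 3 or DBA replicate 3, in each case with the Rbm47 difference near its full size. The values of the crosses did not overlap at 11 of the 20 member probe sets, against 39.2% of all probe sets. At the brightest probe set they did not overlap for 5 of the 8 genes, 2 higher in AKR F1 and 3 in DBA F1. For all genes the shares were 38.4% in either direction, 23.2% higher in AKR F1 and 15.2% higher in DBA F1. Among the 8 genes at their brightest probe set, 2 lay higher in AKR F1, and 6 lay higher in DBA F1, with a median of -0.23 against 0.05 for all genes. After quantile normalization the split was 4 and 4 and the median 0.02, so the group had no common direction.

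The epithelial splicing factors Esrp1 and Esrp2 did not follow Rbm47. Esrp1 read 10.40, 10.30 and 10.68 in AKR F1 against 10.96, 10.07 and 10.90 in DBA F1 tumours. The AKR values lay inside the DBA range. The difference was -0.18 with a 95% interval of -0.79 to 0.43, close to the -0.21 of its brightness decile, and 0.07 after quantile normalization. The interval reaches no further than 0.43 in favour of AKR, far short of the Rbm47 difference.

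Esrp2, the paralog of Esrp1, read 9.64, 8.91 and 9.77 in AKR F1 against 10.06, 8.85 and 9.75 in DBA F1 tumours. Replicate 2 was the lowest array of both crosses, and the crosses overlapped. The difference was -0.11 with a 95% interval of -0.96 to 0.74. It was 0.08 after quantile normalization and 0.41 without AKR replicate 2 and DBA replicate 1, so it has no settled direction. A dim second probe set averaged 5.57 ± 0.31 in AKR F1 against 5.40 ± 0.16 in DBA F1 (SD, n = 3 each), overlapping as well.

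Within each cross, Esrp1 and Esrp2 varied together. The correlation of their deviations from the cross means was 0.91 over the 6 arrays, which share cell composition and normalization. Both were lowest on replicate 2 of each cross: the deviations were -0.57 for Esrp1 and -0.70 for Esrp2 on DBA replicate 2, and -0.16 and -0.53 on AKR replicate 2. Replicate 2 of each cross was also lowest in the mean over fibroblast markers (8.91 in AKR F1 and 8.65 in DBA F1, against 9.94 to 10.27 on the other arrays), macrophage markers (8.41 and 8.78) and endothelial markers (7.29 and 7.31). On DBA replicate 2 the basal-myoepithelial mean was 8.87 and the cartilage mean 9.29. These means were 7.80 and 7.75 on DBA replicate 1, and 9.06 and 8.78 on DBA replicate 3. The part of these markers in the Esrp1 and Esrp2 values was not tested. Among 13 measured luminal epithelial markers, 9 correlated positively with Esrp1 in this way (median 0.78) and 9 with Esrp2 (median 0.81). Krt8 was at 0.95 with Esrp1 and 0.99 with Esrp2, whereas the luminal keratin genes Krt19 (-0.53 and -0.35) and Krt7 (-0.82 and -0.71) went the other way. So did Prom1 (-0.25 and -0.56) and Esr1 (-0.45 and -0.73). For Rbm47, 10 of the 13 were positive with a median of 0.24, from -0.98 for Krt19 to 0.80 for the luminal transcription factor gene Spdef, and its correlation with Esrp1 was 0.49 and with Esrp2 0.31. Counts of positive markers were alike for most other members. They were 9 of 13 for Celf1 and Srsf1 (medians 0.71 and 0.22) and 10 each for Mbnl1 and Hnrnpm (medians 0.26 and 0.44). Ptbp1 differed, with 2 of 13 positive and a median of -0.37. With 6 arrays these values describe the tumours at hand. The mean over the luminal list was 10.56 to 10.66 on the AKR arrays and 10.21 to 10.44 on the DBA arrays, a difference of 0.26. Most of it came from the claudin genes Cldn4 (1.96, limma adjusted p = 0.0392) and Cldn3 (12.50 ± 0.14 against 11.50 ± 0.35, SD, n = 3 each); the list's median was 0.14, and 5 of its 13 genes, among them Krt18 (-0.06) and Cdh1 (-0.15), lay lower in AKR F1. The part of the luminal list in the Rbm47 difference was not tested.

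**Figure D2:**
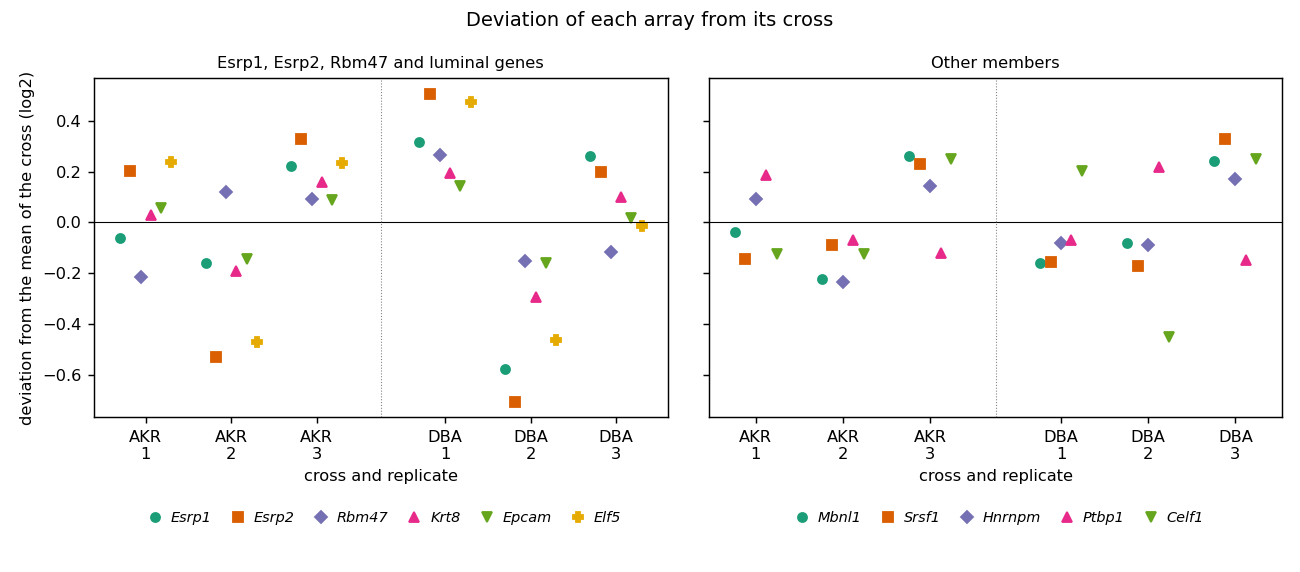
Deviation of each array from the mean of its own cross (log2, y axis) for Esrp1, Esrp2, Rbm47 and the luminal genes Krt8, Epcam and Elf5 (left) and for the other members (right); symbols mark genes, and the arrays of a cross have no order. Esrp1 and Esrp2 lie below their cross mean on replicate 2 of both crosses together with Krt8, Epcam and Elf5. Rbm47 deviates by 0.12 on AKR replicate 2 and by -0.15 on DBA replicate 2. The luminal genes were picked after their values were seen, and Elf5 is not in the luminal marker list. The listed markers Krt19, Krt7, Prom1 and Esr1, not drawn, correlated negatively with Esrp1 and Esrp2.

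Mbnl1, which promotes adult splicing patterns in differentiating tissue, had the largest excess in DBA F1 tumours of any member at its brightest probe set. It read 9.89, 9.70 and 10.19 in AKR F1 against 10.62, 10.70 and 11.02 in DBA F1 tumours. All DBA values lay above all AKR values. The means were 9.93 ± 0.24 and 10.78 ± 0.21 (SD, n = 3 each), a difference of -0.86 with a 95% interval of -1.27 to -0.44, or 1.81-fold. Its decile had a median of -0.21, and quantile normalization left a difference of -0.62. The probe set did not pass at an adjusted p of 0.05 over all probe sets and passed at 0.10, where 3.58% of all probe sets did.

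Srsf1 was covered by 6 probe sets, and they did not all point the same way. The brightest read 9.89, 9.95 and 10.26 in AKR F1 against 10.29, 10.27 and 10.77 in DBA F1 tumours. These ranges were barely separate. Its difference was -0.41 (95% interval -0.85 to 0.03), and -0.17 after quantile normalization. A further 4 probe sets lay higher in DBA F1 tumours, with differences of -0.41, -0.65, -0.86 and -0.46 and the crosses overlapping at the last. The remaining probe set read 9.27, 9.17 and 9.31 in AKR F1 against 8.92, 9.05 and 8.91 in DBA F1 tumours. It lay higher in AKR by 0.29, and by 0.45 after quantile normalization. Every Srsf1 probe set kept its own direction in all 12 alternatives, so the disagreement is between probe sets and not between settings. Which Srsf1 transcripts each of them reads was not analysed here.

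Hnrnpm, which acts against ESRP1 at Cd44 exons, read 9.14, 8.82 and 9.20 in AKR F1 against 9.27, 9.26 and 9.52 in DBA F1 tumours. The ranges were narrowly separate, and the difference of -0.30 (95% interval -0.66 to 0.06) compares with -0.14 for its brightness decile. After quantile normalization it was -0.13. The deviations of Mbnl1 from the cross means correlated with those of Srsf1 at 0.90 and with those of Hnrnpm at 0.90 over the 6 arrays. Srsf1 and Hnrnpm correlated at 0.71 in this way. All 3 genes lay highest on replicate 3 of each cross, as did Celf1 at its brightest probe set and the luminal marker Cdh1.

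Ptbp1 was, after Rbm47, the other member higher in AKR F1 tumours at its brightest probe set. It read 11.84, 11.59 and 11.54 in AKR F1 against 11.17, 11.46 and 11.10 in DBA F1 tumours. The crosses did not overlap, and the difference was 0.41 with a 95% interval of 0.06 to 0.77. This went against the brightness trend, whose median there was -0.21, and the difference was 0.66 after quantile normalization. A dim second probe set differed by 0.40 (0.24 after quantile normalization), with 6.46 ± 0.22 in AKR F1 against 6.07 ± 0.04 in DBA F1 (SD, n = 3 each). Neither passed over all probe sets.

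Celf1, the CUG-binding protein gene, had 5 probe sets with differences from -0.49 to 0.30. The brightest read 10.31, 10.31 and 10.68 in AKR F1 against 10.92, 10.27 and 10.97 in DBA F1 tumours. DBA replicate 2 was the lowest of all 6 arrays there, as it was for Esrp1. Its difference was -0.29 (95% interval -0.81 to 0.24) and -0.04 after quantile normalization, and its deviations from the cross means correlated with those of Esrp1 at 0.98 over the 6 arrays. Of the 5, only 1 had crosses that did not overlap, at 9.10, 8.82 and 9.50 in AKR against 9.53, 9.68 and 9.68 in DBA F1 tumours. No Celf1 probe set passed.

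**Figure D3:**
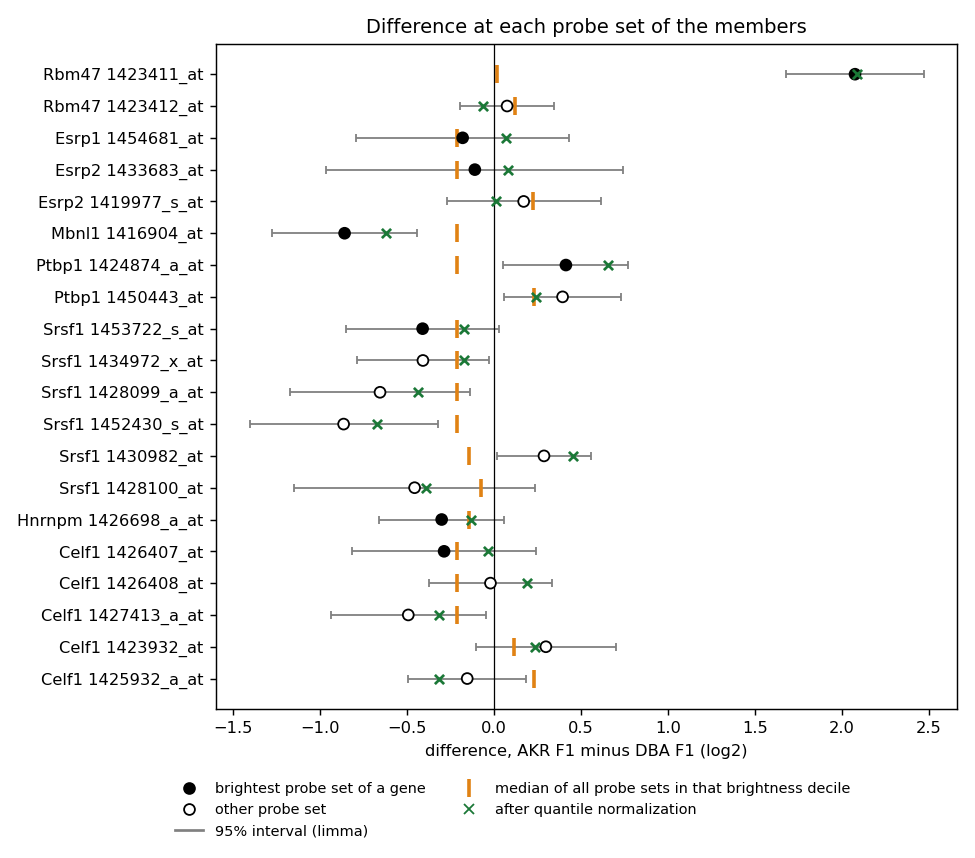
AKR minus DBA difference (log2, x axis) at each of the 20 member probe sets, with the 95% interval from limma, not adjusted for the number of probe sets. Filled points are the brightest probe set of a gene, orange ticks the median of all probe sets of the same brightness decile, and green crosses the difference after quantile normalization. Rbm47 lies at 2.08, its dim probe set at 0.08, and the Srsf1 probe sets run from -0.86 to 0.29.

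Relatives of the members were next compared between crosses. No gene outside the members passed at its brightest probe set in the splicing, target gene or transcription factor lists, which had 95 measured genes. By limma 0.0565% of all genes passed in this way.

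In the list of RBM47-related proteins and editing enzymes (6 of 8 measured), 3 lay higher in AKR F1, and 3 lay higher in DBA F1, with a median of -0.09 against 0.05 over all genes. The editing enzyme gene Apobec1 read 8.68, 8.41 and 8.78 in AKR F1 against 8.18, 8.73 and 8.48 in DBA F1 tumours, which overlapped (difference 0.16, 95% interval -0.27 to 0.59). The RBM47-related hnRNP genes Syncrip (-0.23) and Hnrnpr (-0.56), the germ cell factor Dnd1 (0.32) and Apobec3, which restricts retroviruses (0.05), did not pass. Apobec2, a muscle gene, read 7.04, 7.63 and 7.32 in AKR F1 against 9.39, 8.43 and 8.70 in DBA F1 tumours, a difference of -1.51 (limma adjusted p = 0.0837 over all probe sets). Its highest value was on DBA replicate 1. The mean over 12 muscle markers was 8.42, 8.23 and 9.56 in AKR F1 against 11.39, 6.34 and 6.28 in DBA F1, and the part of muscle in the Apobec2 difference was not tested. At an unadjusted p under 0.05 the list had 2 genes, Apobec2 and Hnrnpr, both higher in DBA. Of all genes, 12.6% were under that threshold and higher in AKR F1, and 12.6% were under it and higher in DBA F1.

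Among paralogs of the members (6 of 9 measured, 3 higher in each cross, median -0.08), Ptbp2 had the largest difference at the brightest probe set. PTBP1 represses the production of PTBP2, its neuronal relative. Ptbp2 read 8.10, 7.35 and 8.39 in AKR F1 against 9.04, 8.96 and 9.50 in DBA F1 tumours, with no overlap, the opposite order to Ptbp1. The difference was -1.22 (SE 0.29, limma adjusted p = 0.102 over all probe sets) and -1.15 after quantile normalization. A dim second Ptbp2 probe set differed by -0.20. Within crosses the deviations of Ptbp1 and Ptbp2 correlated at -0.23. Ptbp3 (-0.17), Mbnl3 (0.08), Celf2 (-0.28), Celf4 (0.57) and the HNRNPM relative Myef2 (0.004) did not pass at the brightest probe set. Celf2 had 4 probe sets, and its others ran from -1.68 to -0.06. At the brightest probe set, Ptbp2 was the 1 paralog at an unadjusted p under 0.05 (12.6% of all genes each way).

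The SR proteins, which bind exons and recruit the splicing machinery, were all higher in DBA F1 as deposited (10 of 10 measured genes), but only 7 of 10 were after quantile normalization. Their median was -0.34 (-0.11 after quantile normalization), against -0.21 for their brightness deciles. None passed by limma over all probe sets. At an unadjusted p under 0.05 there were 5, all higher in DBA, against 12.6% of all genes. The brightest measured were Srsf5 (-0.37), Srsf6 (-0.25), Srsf9 (-0.12) and Srsf2 (-0.13). Further probe sets ran from -0.63 to 0.47 for Srsf2 and from -0.08 to -0.06 for Srsf6. Named after their values were seen, Srsf10 read 8.06, 7.58 and 7.95 in AKR against 9.03, 8.95 and 9.32 in DBA F1 tumours, and Tra2b read 9.78, 9.61 and 9.82 against 10.49, 10.40 and 10.61. Both pairs of ranges were separate, with limma adjusted p of 0.066 for Srsf10 and 0.0793 for Tra2b. A pair of further Srsf10 probe sets differed by only 0.03 and 0.07, and another by -0.93.

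Of 19 measured hnRNP and related genes, 4 lay higher in AKR F1, and 15 lay higher in DBA F1 (median -0.22), and after quantile normalization 11 and 8 (median 0.004). The brightest were Hnrnpc (-0.22), Hnrnpab (0.06), Pcbp2 (-0.26) and Hnrnpdl (-0.15). Further probe sets ran from -0.33 to 1.01 for Hnrnpab and from -0.78 to -0.50 for Hnrnpdl. For Hnrnpc and Pcbp2 the other probe set differed by -0.41 and 0.03. None passed by limma, and 5 had an unadjusted p under 0.05, 2 higher in AKR and 3 in DBA, against 12.6% of all genes in each direction. Hnrnpl, named after its values were seen, differed almost as much as Rbm47: 10.07, 9.75 and 9.79 in AKR against 7.78, 8.39 and 7.38 in DBA F1 tumours. Its difference was 2.02 (SE 0.26, limma adjusted p = 0.0609 over all probe sets) at its single probe set. It passed after quantile normalization, among bright probe sets, with array weights, without DBA replicate 1 and without DBA replicate 2. Its deviations from the cross means correlated with those of Rbm47 at -0.35.

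**Figure D4:**
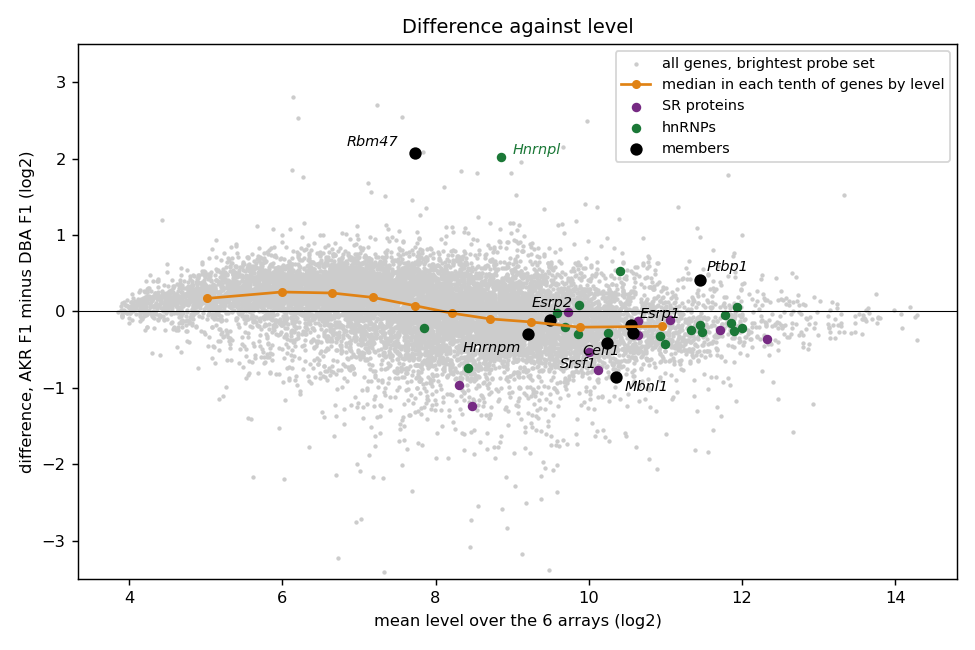
AKR minus DBA difference (log2, y axis) against mean level over the 6 arrays (log2, x axis) for the brightest probe set of each of 12393 genes (grey), with members in black, SR proteins in purple and hnRNPs in green; the orange line joins the medians of deciles by level. Most splicing genes lie near the orange line, while Rbm47 (2.08) and Hnrnpl (2.02) lie far above it. Others, among them Srsf10 (-1.24) and Mbnl1 (-0.86), lie below it.

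The remaining tissue-restricted or general splicing regulators (21 of 26 measured) had 8 genes higher in AKR F1 but 13 in DBA F1, with a median of -0.17 (0.02 after quantile normalization). None passed by limma, and 9 had an unadjusted p under 0.05, 2 higher in AKR and 7 in DBA (12.6% of all genes each way). The brightest were Ybx1 (-0.52), Rbm5 (-0.18), Tial1 (-0.17) and Srrm2 (0.02). Their further probe sets ran from -0.55 to 1.04 for Rbm5 and from -0.67 to 0.54 for Tial1, and lay at 0.15 for Ybx1.

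Genes known to carry ESRP- or RBM47-regulated exons were compared for transcript level at their brightest probe set. Of 13 measured, 6 lay higher in AKR F1, and 7 lay higher in DBA F1 (median -0.24, and -0.05 after quantile normalization). None passed by limma, and 3 had an unadjusted p under 0.05, 2 higher in AKR and 1 in DBA (12.6% of all genes each way). The actin-binding gene Cttn (0.06), the integrin gene Itga6 (-0.61), the tight junction gene Tjp1 (-0.53) and the catenin gene Ctnnd1 (0.24) were the brightest. All had overlapping crosses there. Further Cttn probe sets ran from -0.23 to 0.69, and the other Itga6 probe set lay at -0.31. Fgfr2 (0.07), Cd44 (-0.37) and Enah (-0.24), the textbook ESRP targets, overlapped as well at their brightest probe sets. Further Enah probe sets ran from -0.43 to 0.16. The one at -0.43 did not overlap, with 5.67, 5.91 and 5.76 in AKR F1 against 6.05, 6.41 and 6.17 in DBA F1 tumours. The other probe sets of Fgfr2 and Cd44 lay at -0.05 and -0.33.

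Transcription factors of the epithelial state (12 of 13 measured) split evenly, with 6 higher in each cross and a median of -0.01, or 0.19 after quantile normalization. None passed by limma, while 4 had an unadjusted p under 0.05, all higher in AKR, as did 12.6% of all genes. The brightest were Elf5 (-0.07), Cebpb (0.05), Ehf (-0.47) and Gata3 (-0.19). Their further probe sets lay at 0.12 for Elf5, at 0.75 for Cebpb and from -0.29 to -0.13 for Ehf. Grhl2, which maintains epithelial gene expression, was one of the 4 and was named after its values were seen. It read 10.16, 10.05 and 10.41 in AKR F1 against 9.91, 9.71 and 9.82 in DBA F1 tumours, and its 4 probe sets differed by 0.39, 0.55, 0.60 and 0.55. Its level followed that of Rbm47 over the 6 arrays at 0.87, but within crosses at 0.40. Among 8 transcription factors of the mesenchymal state, 5 lay higher in AKR F1, and 3 lay higher in DBA F1 (median 0.18, and 0.02 after quantile normalization). None passed by limma, and 2 had an unadjusted p under 0.05, both higher in DBA, as did 12.6% of all genes. Zeb1 read 7.44, 7.27 and 7.23 in AKR F1 against 7.47, 8.26 and 7.93 in DBA F1 tumours, with ranges that were barely separate. Its other probe set went the opposite way between crosses, with a difference of 0.29. Twist2 (0.51), Snai1 (0.26) and Prrx1 (-1.76) were the other bright ones, and 7 of the 8 lay below the median of all probe sets. Prrx1 read 6.62, 5.93 and 6.44 in AKR F1 against 6.88, 8.96 and 8.43 in DBA F1 tumours, which did not overlap. Its further probe sets ran from -1.77 to -0.82.

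Finally, genes were ranked by the Pearson correlation of their level with Rbm47 over the 6 arrays, among 7258 genes brighter than the median. The 5 most similar were Slc6a17 (0.996), Sorcs2 (0.995), Sema7a (0.993), Gps2 (0.991) and Tnks1bp1 (0.986). Their differences between crosses were smaller than that of Rbm47, from 0.22 for Sema7a to 0.81 for Sorcs2. The 3 most opposite were B2m (-0.993), Ifi27l2a (-0.992) and Wbp4 (-0.992). The measure includes the separation of the crosses that chose Rbm47, and 61 genes exceeded 0.95 and 116 lay below -0.95. Within crosses the correlation was 0.97 for Slc6a17, 0.87 for Sorcs2, 0.75 for Sema7a, 0.86 for Gps2 and 0.66 for Tnks1bp1. The deviations within crosses are also part of the measure that ranked these genes, so these values are no separate check. The order was unstable, since at most 3 of the 5 stayed among the top 5 when an array was left out. For Esrp1 the most similar were Snap29 (0.995), Ndufb7 (0.994) and Myo5b (0.989), none of which is among the 5 of Rbm47.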

How the data were processed

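Trizol-extracted total RNA of 6 snap-frozen tumours was labelled with biotin, per the labels' protocols. The authors deposited log2 values for 22690 probe sets; the scale was read from the values, and MAS5 and RMA are named per the submitters' processing notes, without saying which made them. For background correction, the method was not given in the sources used here. Detection calls were not used, so dim probe sets stayed in. The 64 control probe sets were left out. Symbols came from the platform annotation, where 20380 probe sets had 1 symbol, 691 several and 1555 none. A gene stands for its probe set with the highest mean.

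Each probe set was tested between the crosses by limma 3.58.1 under R 4.3.3 (two-sided eBayes test after lmFit, p-values adjusted by Benjamini-Hochberg across 22626 probe sets), tested on simulated data. Intervals are 95% and unadjusted. Replicates were numbered in accession order and pair nothing. The members and lists were chosen with earlier results of these data known. Named were all members, all measured relatives, the 4 brightest genes of each other list and the genes most like Rbm47 and Esrp1 in pattern; exceptions are marked in the text. Krt8, Krt18, Krt19, Krt7, Cldn3, Cldn4, Cdh1, Spdef, Epcam, Prom1, Esr1, Fgfr2, Cd44 and Enah were also named outside this rule. Alternatives were quantile normalization, median centring, a brightness filter, a trended robust prior, array weights (gene-by-gene method), adjusted p 0.10, gene means, Spearman correlation and leaving out arrays. Figures used matplotlib 3.10.9.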

Additional observations from a re-analysis of the deposited data

How the results depend on the processing

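Precision is limited by 3 arrays per cross. Rbm47, given as a value, stayed at 2.00 to 2.21 over its 12 alternatives at the brighter probe set, but lost its call in 4 of them (without AKR replicate 1, 2 or 3 or DBA replicate 3). Its dim probe set moved from 0.08 to -0.06 after quantile normalization. No called member difference changed sign. As deposited, 22 probe sets passed, 1 of them a member's and 0 of them the brightest probe set of a listed splicing, target or transcription factor gene. In the same order the counts were 810, 2 and 5 at an adjusted p of 0.10, 36, 1 and 1 after quantile normalization, 102, 1 and 2 among probe sets brighter than the median, and 3712, 6 and 24 with array weights, which gave AKR replicate 2 a weight of 0.192. Median centring gave 33 and the trended robust prior 32 calls. Leaving out single arrays gave 1 to 263 calls, 0 to 1 among members and 0 to 2 among listed genes. Without AKR replicate 2 and DBA replicate 1 together, a setting chosen after seeing the data, the counts were 657, 2 and 5. The share of calls higher in AKR was 36.4% as deposited, 51.4% with array weights, 73.1% without DBA replicate 2 and 10.6% without DBA replicate 1. The luminal list differed by 0.26 as deposited and 0.43 after quantile normalization. The mean of both Rbm47 probe sets differed by 1.08. Of the 5 genes most like Rbm47, 1 remained after quantile normalization, 0 by Spearman correlation, where 20 genes tied, and 1 to 3 without single arrays. The causes were not tested. No paired analysis was possible because the labels give no replicate numbers shared between crosses.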
